A study of Mus musculus with 4 samples.

Results

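Maternally methylated imprinted control regions are CpG-rich stretches that carry DNA methylation on the copy inherited from the mother and none on the copy inherited from the father. They were examined here through 16 windows on mouse build mm9, each named after an imprinted gene at that place. A CpG was a member where it lay in a window and had at least 10 reads in all 4 libraries. By this rule 362 of 1045368 CpGs were members, and every window held some, from 5 in Peg3 to 75 in Nespas. Joining CpGs at most 100 bp apart into clusters of at least 3 gave 41 member clusters of 99566 in all. The rule for members uses position and coverage, not methylation levels.

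In the oocyte these regions are methylated, in the male germ line they are not, and after fertilisation the difference is kept at every cell division. The maintenance methyltransferase DNMT1 copies the mark to the new strand, and the zinc finger protein ZFP57, which binds a short methylated motif, recruits silencing proteins that protect it. Many of these regions are promoters, and the gene or noncoding RNA that starts there is then made from the paternal copy. In a diploid somatic cell such a region yields about as many methylated as unmethylated reads.

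The cells were secondary, inducible mouse embryonic fibroblasts (MEFs) of a 129/SvJ x C57/B6 hybrid background, in which doxycycline switches on reprogramming factors. Uninduced cells (control) were set against cells held in doxycycline for 96 hours that had divided on average 0 times, 1 time or more than 3 times, called the 0-division, 1-division and >3-division libraries. For the last group 1 label reads >3 and another, in words, includes 3. Each group had 1 library, made by reduced representation bisulfite sequencing (RRBS), in which MspI cuts at CCGG and fragments of 40 to 220 bp are read after bisulfite conversion. Media with 10%, 15% and 0.5% serum are named in the labels, and the cohort that received the last is not given, so serum and division number cannot be told apart. The files hold no allele, so the parental copy behind a read is not known, and a level between 0% and 100% does not separate methylation of 1 copy in every cell from methylation of both copies in some cells. No cell type marker could be checked, since only DNA methylation was measured.

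Summed reads over listed CpGs lay between 84606824 and 94775128 per library. Members had a median of 74, 69.5, 70 and 87.5 reads per CpG in control, 0-division, 1-division and >3-division, and a lowest coverage of 10 reads. The >3-division library stood apart as a whole. Methylated reads made up 26.0% of its total and 44.4% of that of control, and the mean level over all CpGs was 38.8% against 42.4%. CpG-dense sites of the X chromosome, a second kind of sequence that can be methylated on 1 copy, averaged 25.3%, 27.5%, 26.7% and 20.6% in the same order of libraries. In control their median was 8.33% and only 9.61% of them lay between 20% and 80%, so most were not partly methylated. The sex of the cells was not among the labels used here. With 1 library a group, library and condition cannot be told apart, and no value below has a replicate check.

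The names of the windows were checked on sequence for the windows whose gene has a RefSeq promoter (250 bases before to 50 after the gene start, GRCm38.p6), which was true of 13 of 16. No genome of build mm9 was used, so the spacing of the listed CpGs was compared with the spacing of CG pairs in the promoter. At least 5 listed CpGs fell in a matching stretch, with none out of place, in 3 windows. In Plagl1 22 of 22 listed CpGs matched, in Mcts2 18 of 18 and in Zrsr1 7 of 7. The other windows had no such match or no promoter to compare, so their names rest on position alone. Of 1649 promoters on chromosome 10 only the overlapping Hymai promoter matched the Plagl1 window at as many CpGs. Among 2847 on chromosome 2 no other did so for Mcts2, and among 2289 on chromosome 11 only a promoter of Commd1, the gene that hosts Zrsr1, did so for Zrsr1. The 3 promoters are shown because they are the places where base and methylation value can be set side by side. Capitals mark the CG pairs that were measured with at least 10 reads in all libraries.

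Plagl1, GRCm38.p6 chr10:13090582-13090881, plus strand: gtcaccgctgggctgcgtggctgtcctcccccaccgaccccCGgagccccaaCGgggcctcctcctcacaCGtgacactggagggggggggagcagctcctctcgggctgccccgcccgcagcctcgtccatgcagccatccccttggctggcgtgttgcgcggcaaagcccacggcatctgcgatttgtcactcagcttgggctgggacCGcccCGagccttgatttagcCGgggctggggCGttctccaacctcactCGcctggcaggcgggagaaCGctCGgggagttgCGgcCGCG
Mcts2, GRCm38.p6 chr2:152686898-152687197, plus strand: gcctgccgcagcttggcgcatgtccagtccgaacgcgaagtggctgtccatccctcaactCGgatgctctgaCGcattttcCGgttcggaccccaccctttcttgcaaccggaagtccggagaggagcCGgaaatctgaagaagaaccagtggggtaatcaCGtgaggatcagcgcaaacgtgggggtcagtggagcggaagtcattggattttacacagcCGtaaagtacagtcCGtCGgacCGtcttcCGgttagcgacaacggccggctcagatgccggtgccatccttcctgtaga
Zrsr1, GRCm38.p6 chr11:22971755-22972054, plus strand: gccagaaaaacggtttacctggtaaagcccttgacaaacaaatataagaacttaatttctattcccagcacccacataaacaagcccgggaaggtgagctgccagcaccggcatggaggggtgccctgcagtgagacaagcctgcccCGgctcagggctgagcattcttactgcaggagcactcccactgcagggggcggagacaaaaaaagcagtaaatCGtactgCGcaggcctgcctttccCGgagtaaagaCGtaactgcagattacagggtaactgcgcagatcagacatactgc

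The 13 measured CpGs of the Plagl1 promoter averaged 39.2%, 37.0%, 38.0% and 18.9% in control, 0-division, 1-division and >3-division. In the Mcts2 promoter 10 measured CpGs averaged 55.1%, 52.5%, 51.1% and 10.9%, and every one of them was at or under 16.8% in the last library. The 5 measured CpGs of the Zrsr1 promoter averaged 9.64%, 10.1%, 12.3% and 3.33%, so this promoter carried little methylation in all 4 libraries. The letters TGCCGC, the ZFP57 motif, were searched on both strands. They occurred once each in the Plagl1 and Mcts2 promoters and in 11.6% of all 32851 promoters, and neither copy lay on a measured CpG. The MspI site CCGG was present in all 3 promoters and in 52.8% of all promoters.

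In control cells 12 of the 16 windows lay between 20% and 80% on average over their CpGs. Airn was at 56.6%, Peg3 at 55.1%, Mcts2 at 50.2%, Nespas at 49.1%, Peg10 at 44.5%, Mest at 40.7% and Plagl1 at 40.3%. Snrpn followed at 38.7%, Impact at 37.2%, Kcnq1ot1 at 35.8% and Gnas at 35.3%. The 95% counting intervals of neighbours in this order overlapped. The last of the 12, Nap1l5, was at 77.6%, but its median CpG was at 83.2% and only 3 of its 12 CpGs lay between 20% and 80%. At most of its CpGs it went against the label of a region methylated on 1 copy. The other windows did so on average: Nnat was at 91.7%, Inpp5f at 19.2%, Grb10 at 8.64% and Zrsr1 at 6.85%. Of single member CpGs, 64.1% lay between 20% and 80% in control, against 18.6% of all CpGs.

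**Figure D1:**
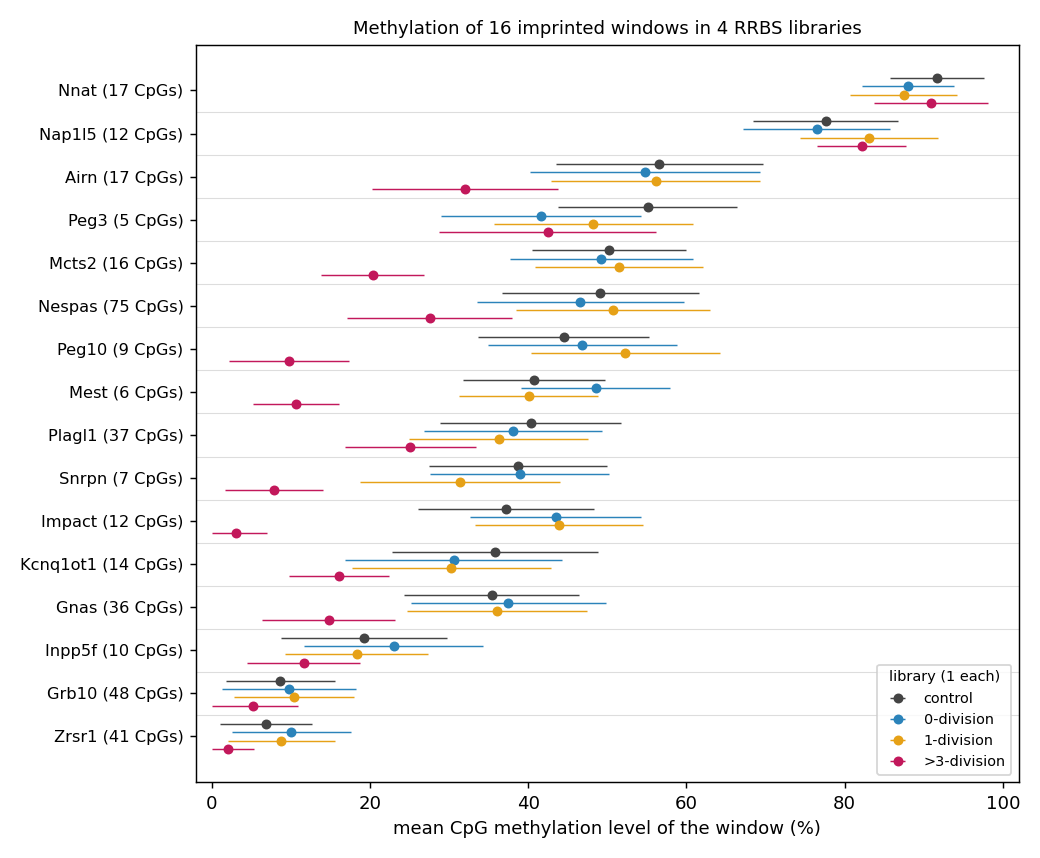
Each point is the mean methylation level (%, x axis) of a window's member CpGs in 1 of 4 libraries, with windows on the y axis in order of their control level. Bars are 95% counting intervals that treat all CpGs of a window as read by the same molecules. Control, 0-division and 1-division points lie within 13.5 points of each other in every window, and the >3-division point is the lowest in 13 of 16 windows.

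In doxycycline-treated cells with 0 divisions or 1 division on average, most windows had levels close to control. Across the 16 windows the span of the control, 0-division and 1-division levels had a median of 4.45 points, and the widest span was 13.5 points, in Peg3. Over the 362 CpGs the mean was 37.9% in control, 37.7% with 0 divisions and 38.3% with 1. With these means the difference from control was -0.24 and 0.39 points, beside 0.24 and 0.098 points over all CpGs. No window had a counting interval of its difference that lay wholly above or below 0 in either library. These intervals treat all CpGs of a window as read by the same molecules, and they are wide. That of Nespas, with CpGs over 5079 bp, was -20.6 to 15.7 points in 0-division. They cannot show that a window was unchanged.

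At single CpGs the same comparisons gave no member call. A CpG was called at a difference of at least 20 points and an adjusted p under 0.05 (two-sided Fisher's exact test on reads, Benjamini-Hochberg adjustment over all CpGs). With 0 divisions 0.00631% of all CpGs were called lower and 0.0045% higher, and with 1 division 0.00153% and 0.0022%. At an unadjusted p under 0.05 the first comparison had 13 member CpGs lower (3.59%) and 9 higher (2.49%), beside 1.77% and 2.02% of all CpGs (Fisher's exact test). The second had 26 lower (7.18%) and 18 higher (4.97%), beside 1.63% and 1.86% of all CpGs. Members lay between 20% and 80% in control more often than all CpGs did (64.1% against 18.6%). No share of CpGs at matched levels was taken, so these shares do not set members apart. Since both comparisons use the same control library, their values are not independent.

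A few member clusters differed in these early libraries. A cluster was called at 10 points or more by the same test on summed reads. In the 0-division library 1 of 41 member clusters was lower and 1 higher, beside 0.376% and 0.395% of all clusters. Of 27 member clusters at 20% to 80% in the 1-division library, 1 was lower and 1 higher (3.70% each). Of 930 autosomal CpG-dense clusters elsewhere at those levels 2.37% were lower and 2.26% higher. Of 43 CpG-dense X clusters at those levels 6.98% were lower and 9.30% higher. In the 0-division library the Peg3 cluster (chromosome 7, 6682972 to 6683037), at a gene for a zinc finger protein, fell from 61.1% to 42.7% (adjusted p = 0.00056, Fisher's exact test). It stood at 52.6% and 44.7% in the 1- and >3-division libraries. An Impact cluster (chromosome 18, 13131639 to 13131756) rose from 37.5% to 51.2% (adjusted p = 0.00036, Fisher's exact test), and its 1-division level was 47.4%. Impact encodes a regulator of translation.

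In the 1-division library 0.132% of all clusters were called lower and 0.215% higher, and 3 of 41 member clusters were lower and none higher. Among clusters at 20% to 80% in the 0-division library, 2 of 26 member clusters were lower and 0 higher. At those levels 0.212% of 944 autosomal CpG-dense clusters elsewhere were lower and 0.742% higher, and of 50 CpG-dense X clusters 0 were lower and 2 higher. In Airn (chromosome 17, 12934455 to 12934472) the level fell from 57.2% to 33.6% (adjusted p = 0.00038, Fisher's exact test). The Snrpn cluster fell from 43.7% to 24.6% (adjusted p = 0.0075, Fisher's exact test), and a Nnat cluster fell from 90.2% to 78.8% (adjusted p = 0.0023, Fisher's exact test). All 3 calls, and the Peg3 call of the 0-division library, were lost with reads reduced for an overdispersion of 1.70, the mean chi-square per cluster between control and 1-division. That factor comes from the same comparison as the 3 calls, and real differences there would raise it too. A Zrsr1 cluster (chromosome 11, 22872730 to 22872875) stood at 3.47% in control and 11.4% in 0-division, with an adjusted p of 0.00013 (Fisher's exact test), under the minimum of 10 points.

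After more than 3 divisions the methylation of most windows was far lower. Over the 362 CpGs the mean was 22.3%, against 37.9% in control, a difference of -15.7 points beside -3.62 points over all CpGs. By window the median difference was -20.1 points, 15 of 16 windows were below control, and 10 had an interval of the difference wholly below 0. The >3-division level was the lowest of the 4 libraries at 260 of 362 CpGs. Between 20% and 80% there were 232 member CpGs in control and 126 in the >3-division library, while at 0% there were 3.31% and 10.8% of them.

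Of all clusters 11.0% were called lower and 0.577% higher in the >3-division library than in control. Of the 41 member clusters 25 were called lower (61.0%) and 0 higher, and the called clusters lay in 13 windows, all except Nnat, Nap1l5 and Inpp5f. The median difference was -14.4 points over member clusters and -1.28 points over all clusters. With a minimum of 20 points in place of 10, 16 member clusters were called. At single CpGs 105 members (in 10 windows) were called lower and 0 higher, where 3.05% and 0.0865% of all CpGs were. No member CpG was called higher in any setting tried, and at an unadjusted p under 0.05 there were 188 lower members (51.9%, beside 10.3% of all CpGs) and 4 higher (1.1%, beside 1.08%, Fisher's exact test). The shares of all CpGs were not matched for level.

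Peg10, Impact, Snrpn, Mest and Mcts2 differed from control by between -34.7 and -29.9 points. The order of windows depended on the setting: Airn, at -24.6 points, was at -37.7 points with a minimum of 20 reads, below all other windows. The Impact window (12 CpGs) was at 37.2%, 43.5% and 43.9% in control, 0-division and 1-division and at 2.99% in >3-division. It was thus -34.2 points from control (95% counting interval -46.0 to -22.4). Every Impact CpG was at or under 7.37% there, and all 12 were called lower. In its CpG at position 13131727, with 188 reads, the level was 1.6%, against 39.9% in control. The next lowest maximum among the 12 partly methylated windows was 10.1%, in Snrpn.

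Peg10 is a retrotransposon-derived gene needed in the placenta. Its 9 CpGs, within 135 bp (window on chromosome 6, 4695000 to 4700000), averaged 44.5%, 46.8%, 52.3% and 9.74% in control, 0-division, 1-division and >3-division. The difference from control was -34.7 points (-48.0 to -21.4), and all 9 CpGs were called lower. Mest encodes a protein of the hydrolase fold, and its 6 CpGs (chromosome 6, 30684000 to 30691000) averaged 40.7%, 48.5%, 40.0% and 10.6%. In Mest the CpG at 30685293, far from the others, stood at 23.8% (46.4% in control), and the 5 clustered CpGs were between 7.26% and 9.7%. In both windows the mean of the last library lay below the other 3, and its counting interval did not overlap that of control.

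Snrpn encodes a splicing protein and marks the imprinting centre of the Prader-Willi locus. Its 7 CpGs (chromosome 7, 67148000 to 67152000) averaged 38.7%, 38.9%, 31.4% and 7.81%, a difference from control of -30.9 points (-43.8 to -18.0), with a highest single CpG of 10.1% in the last library. Mcts2 is a retrogene inside an intron of another gene. Its 16 CpGs (chromosome 2, 152511000 to 152514000) averaged 50.2%, 49.2%, 51.5% and 20.3%, a difference of -29.9 points (-41.8 to -18.0). Within Mcts2 the >3-division level was uneven: the CpGs at 152512761 and 152512794 were at 1.48% and 1.49% (44.4% and 43.7% in control), and the one at 152512579 was at 78.9% on 19 reads (58.1% in control).

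Plagl1, a zinc finger transcription factor that restrains growth, had a smaller difference than the windows above. Its 37 CpGs (chromosome 10, 12809000 to 12813000) averaged 40.3%, 38.1%, 36.2% and 25.1%, a difference from control of -15.2 points (-29.4 to -1.1). The single CpGs lay between 14.3% and 38.3% in the >3-division library and none was at 0%. Both Plagl1 clusters were called lower, the larger, of 34 CpGs, from 40.3% to 26.0% (adjusted p = 6e-29, Fisher's exact test on 2398 and 3753 reads). Plagl1 and Impact thus had similar control levels and >3-division intervals that did not overlap (16.8% to 33.4% for Plagl1, up to 6.9% for Impact).

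The Gnas locus held 2 windows, that of Nespas, an antisense noncoding RNA, and that of Gnas, the gene of a G protein subunit. Nespas (75 CpGs, chromosome 2, 174119000 to 174127000) averaged 49.1%, 46.6%, 50.7% and 27.6%, and Gnas (36 CpGs, 174152000 to 174155000) 35.3%, 37.5%, 36.1% and 14.8%. In Nespas 7 of 9 clusters were called lower. The largest of these differences was at 174125946 to 174126067, where the level fell from 62.7% to 20.8%. Nespas CpGs differed widely among themselves: in >3-division the CpG at 174125828 was at 1.05% of 95 reads (52.1% in control), and that at 174123526 was at 97.3% of 37 reads (96.1% in control).

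In Gnas 3 of 4 clusters fell. The CpG at 174154044 had 0 methylated of 141 reads in the >3-division library, which allows up to 2.13%, against 34.8% of 141 reads in control. The cluster of 3 CpGs at the near end, 174152431 to 174152488, had 39.6% methylated reads in control and 50.4% in >3-division, and was not called. It has 3 CpGs within 100 bp, while the other 3 clusters average 13.0 to 20.5.

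**Figure D2:**
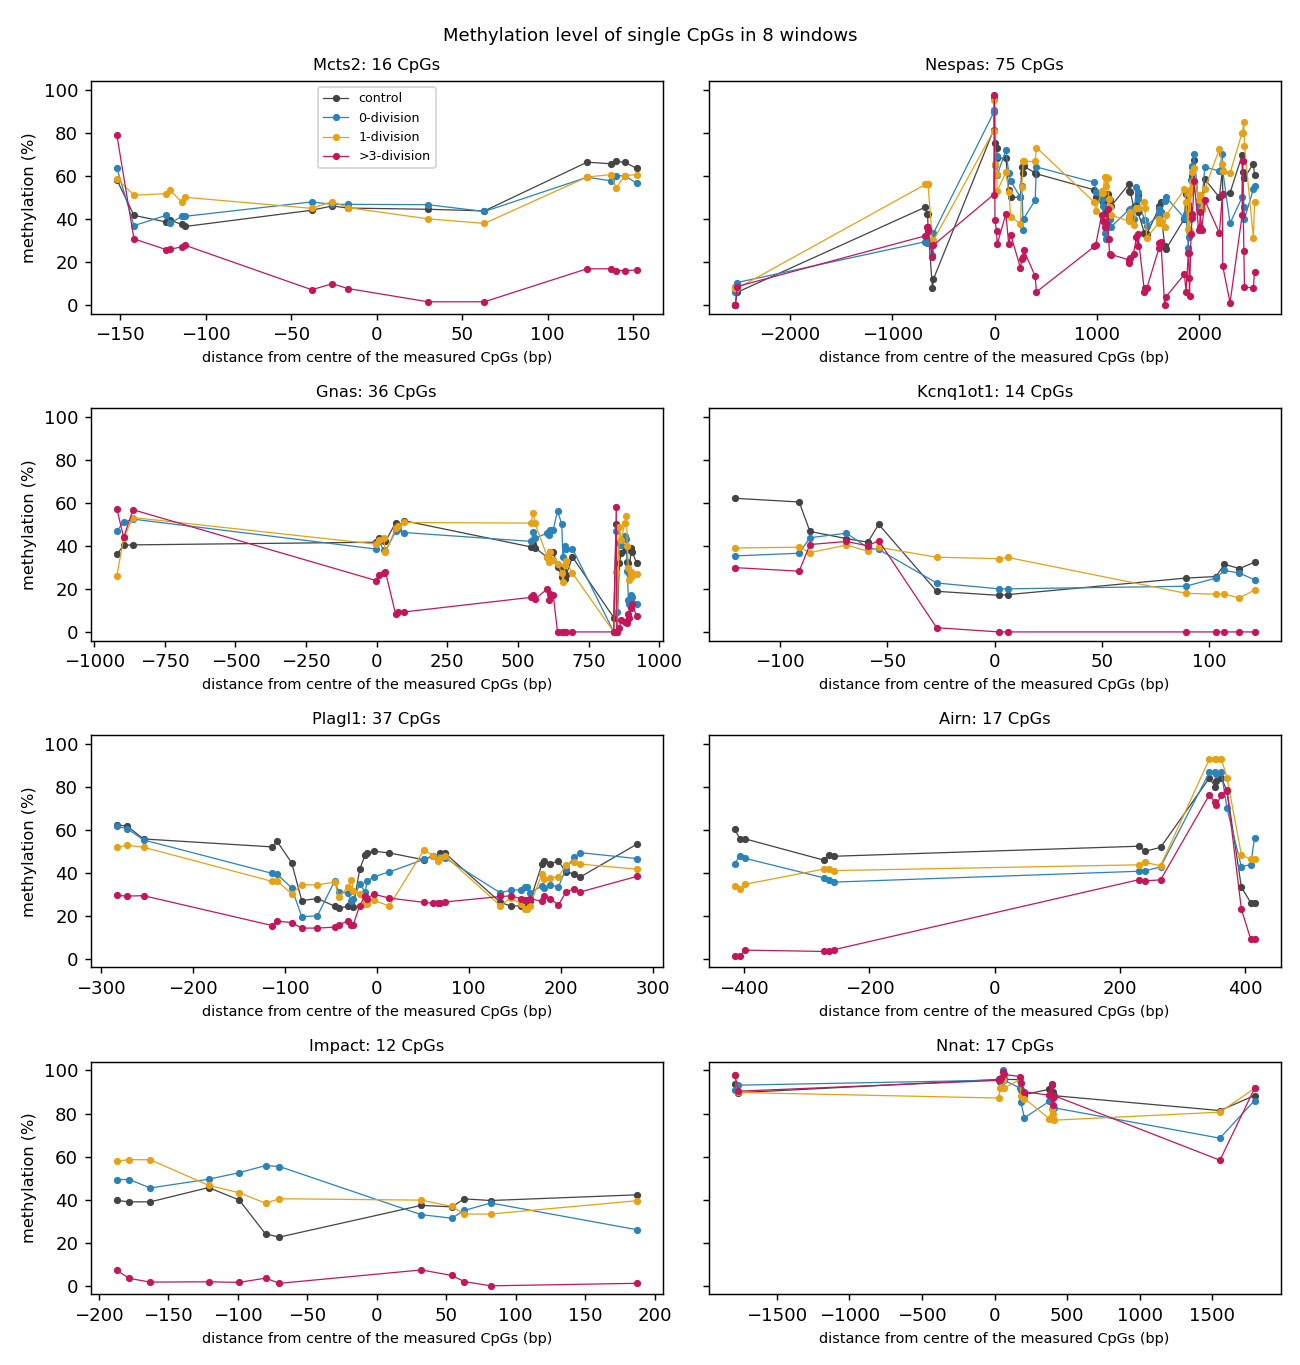
Methylation level (%, y axis) of each member CpG in 8 windows against its distance in bp from the centre of the measured CpGs (x axis), with a line for each of the 4 libraries. The >3-division line runs near 0% across Impact and along 1 side of Kcnq1ot1 and Airn, stays between 14.3% and 38.3% in Plagl1, and lies among the others in Nnat.

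In the windows of 2 cis-silencing noncoding RNAs the >3-division levels differed sharply along the window. Kcnq1ot1 RNA represses its neighbours on the paternal chromosome. Its 14 CpGs (chromosome 7, 150480000 to 150484000) averaged 35.8%, 30.6%, 30.3% and 16.1%, a difference from control of -19.7 points (-34.5 to -4.92). In the >3-division library the 6 CpGs from 150481279 to 150481346 stood between 28.2% and 42.4%, and the 8 CpGs from 150481373 to 150481521 had at most 1 methylated read each. Of these 8, 7 had no methylated read in 33 to 51 reads, which allows up to 9.09% at the shallowest. The step fell between the CpGs at 150481346 and 150481373. A step was there in control too, with 28 of 56 methylated reads at the first and 18.9% at the second, while 1-division had 39.3% and 34.7%. Single calls were few: 2 of the first 6 CpGs and 3 of the last 8 were called lower.

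Airn, the noncoding RNA that silences Igf2r on the paternal chromosome, also varied along its window. Its 17 CpGs (chromosome 17, 12933000 to 12936000) averaged 56.6%, 54.8%, 56.1% and 32.0%. These means rest in part on thinly read CpGs. With a minimum of 20 reads the Airn difference from control was -10.5, -12.2 and -37.7 points in 0-division, 1-division and >3-division, and with summed reads -9.2, -8.94 and -29.9 points, where the means above give -1.76, -0.48 and -24.6 points. The 6 CpGs from 12934455 to 12934614 were between 1.37% and 4.31% in the >3-division library, where control had 45.8% to 60.3%. The next cluster held 3 levels in >3-division: its first 3 CpGs were at 36.3% to 36.8%, the 5 CpGs from 12935213 to 12935241 at 71.4% to 78.3% on 21 to 23 reads, and the last 3 at 9.09% to 23.1% on 11 to 13 reads. In control the 5 CpGs were at 78.1% to 84.0% and the last 3 at 26.1% to 33.3%. The first cluster fell from 57.2% to 2.27% and the middle one from 47.2% to 3.74%, while the last fell from 56.2% to 41.8% (adjusted p = 5.2e-05, Fisher's exact test).

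In the >3-division comparisons Nnat, Nap1l5 and Inpp5f had no cluster called, and the Peg3 cluster was called against control and not against 0-division. Nnat, the neuronatin gene, was at 91.7%, 88.0%, 87.5% and 90.9%, and Nap1l5, an intronless gene within Herc3, at 77.6%, 76.5%, 83.1% and 82.1%. No Nnat or Nap1l5 CpG was called, and the interval of the difference was -10.2 to 8.74 points in Nnat and -6.42 to 15.5 points in Nap1l5. The Nnat difference was -0.75 points, 1.27 points with reads summed over CpGs and -7.17 points at a minimum of 5 reads, so no direction is given. Peg3, with 5 CpGs, was at 55.1%, 41.6%, 48.2% and 42.5%. Its summed reads fell from 61.1% to 44.7% against control (adjusted p = 0.00094, Fisher's exact test), but its >3-division level was 0.88 points above the 0-division level.

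Among the windows that were low in control, Inpp5f was at 19.2%, 23.0%, 18.3% and 11.6%, with no call. Its difference from control in >3-division was -7.61 points, and -3.71 points with summed reads. Grb10, which encodes an adaptor that restrains growth, was at 8.64%, 9.76%, 10.4% and 5.21% over 48 CpGs. The Grb10 difference from control was -3.43 points, and -0.87 points at a minimum of 5 reads. A Grb10 cluster of 5 CpGs (chromosome 11, 11925630 to 11925659) fell from 17.2% to 4.21%. Zrsr1 was at 6.85%, 10.0%, 8.79% and 2.02% over 41 CpGs, and its cluster of 4 CpGs from 22873139 to 22873167 fell from 11.1% to 0.81%. A window below 10% in control cannot be 10 points lower as a whole, so only its more methylated clusters could be called.

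Against the 0-division library, which shares the drug, the >3-division levels gave nearly the same picture, with 13 of 16 windows lower and a median difference of -16.8 points. Of all clusters 11.2% were lower and 0.614% higher, and of member clusters 22 were lower and 0 higher, 21 of them also called against control. At CpG level 106 members were lower and 0 higher, beside 3.22% and 0.0888% of all CpGs. Impact differed by -40.5 points (-52.0 to -28.9), Mest by -37.9 points and Peg10 by -37.1 points. Kcnq1ot1 (-14.5 points) and Plagl1 (-13.0 points) had intervals that reached above 0, and Kcnq1ot1 was at -7.23 points with summed reads. The 2 comparisons share the >3-division library and are not independent.

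The differences were set beside those of other partly methylated sequence. Clusters between 20% and 80% in the 1-division library, which takes no part in the comparison of >3-division with control, were taken from the windows and from the rest of the autosomes. Of 27 such member clusters, of any density, 23 were called lower (85.2%), with a median difference of -26.4 points. Of 930 CpG-dense clusters elsewhere (at least 12 CpGs within 100 bp) 29.9% were called lower, with a median of -4.91 points, and of 22035 clusters of any density 27.8%, with a median of -6.21 points. Median control levels were 46.6% in the member clusters, 41.3% in the CpG-dense clusters and 65.7% in those of any density, so the last set started higher. A level under 10% in the >3-division library was reached by 8 of the 27 member clusters (29.6%), by 3.66% of the CpG-dense clusters elsewhere and by 1.67% of those of any density. Among 43 CpG-dense X clusters chosen in the same way, with a median control level of 36.5%, 8 (18.6%) were under 10%. Of these X clusters 25.6% were called lower, with a median difference of -4.89 points. All 8 member clusters that were themselves CpG-dense were called lower, with a median difference of -24.9 points. No test of the list against other sequence was made.

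**Figure D3:**
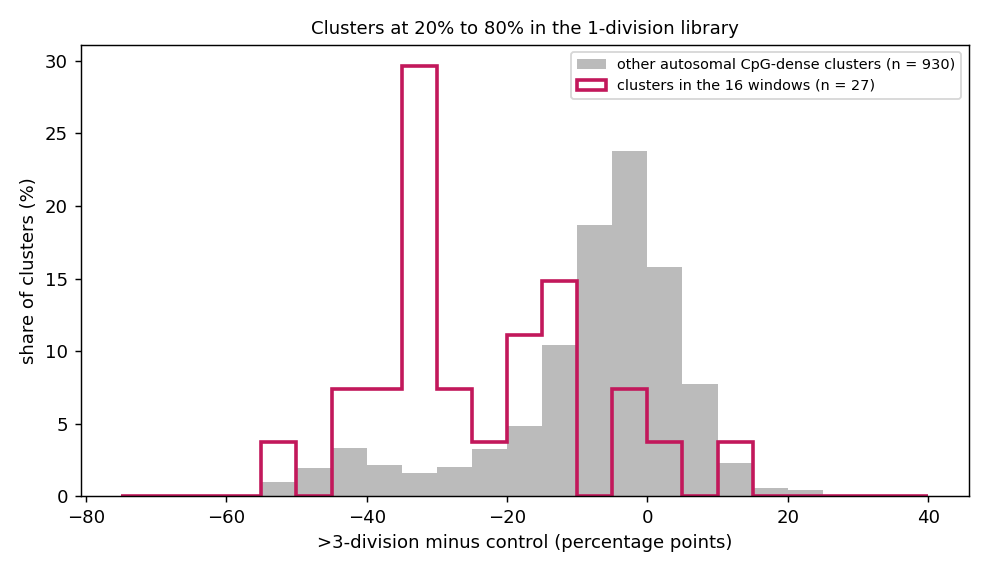
Share of clusters (%, y axis) by their >3-division minus control difference in percentage points (x axis, bins of 5 points), for clusters at 20% to 80% in the 1-division library. The outline is the 27 clusters in the windows, of any CpG density, with a median of -26.4 points. The filled bars are 930 autosomal CpG-dense clusters elsewhere, with a median of -4.91 points and a 10th percentile of -30.0 points.

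Reads of both kinds moved in the windows. Scaled to the summed reads of each library, methylated reads of the windows in the >3-division library were 0.61 times those of control and unmethylated reads 1.48 times, with total reads at 1.14 times. By window the methylated ratio ran from 0.0781 in Impact to 1.24 in Nap1l5 and was below 1 in 14 windows, and the unmethylated ratio ran from 0.696 in Nnat to 1.99 in Mcts2 and was above 1 in 13. Over whole libraries the ratios were 0.586 and 1.33. At all CpGs between 20% and 80% in the 1-division library they were 0.664 and 1.01, and CpGs at or under 5% there had 1.47 times the reads of control. The window ratios include windows that were low in control. At member clusters of any density between 20% and 80% in the 1-division library the ratios were 0.541 and 1.55, and at autosomal CpG-dense clusters elsewhere 0.70 and 1.10. The part of this library-wide shift in the fall of the windows was not tested. With each CpG thinned to its lowest coverage of the 4 libraries the mean difference of the windows was -15.9 points. Thinning draws from the CpG's own reads and keeps its expected level, so this value has no bearing on that shift.

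**Figure D4:**
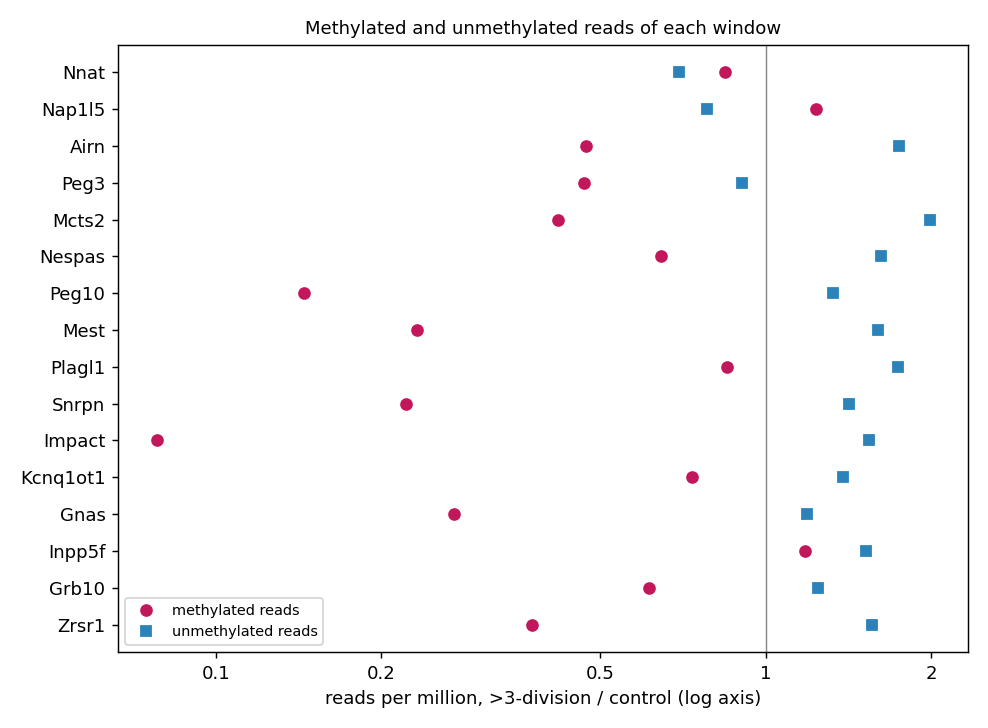
Methylated (circles) and unmethylated (squares) reads of each window, scaled to summed library reads, as the ratio of >3-division to control on a log axis, with windows in order of control level. Methylated reads were below control in 14 of 16 windows, lowest in Impact at 0.0781 times, and unmethylated reads were above control in 13.

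Across the 362 CpGs Pearson's r was 0.929 between control and 0-division, 0.914 between control and 1-division and 0.801 between control and >3-division. Neighbouring CpGs share reads and windows, so these correlations are descriptions across sites. The spread of the 16 window means widened from an SD of 21.9 points in control to 26.5 points in >3-division, where Nnat and Nap1l5 stood at 90.9% and 82.1% and the median window at 15.4%.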

How the data were processed

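Each deposited table lists CpGs without a header and gives methylated and unmethylated read counts, as the authors wrote them, in 1 text column; the order was settled from the values, since the first number was 0 at 62.3% of CpG-dense CpGs in control. The build is mm9 (per the submitters' processing notes), and positions are printed as deposited. Whether they count from 0 or 1, the aligner, the caller, the conversion check and duplicate handling: not given in the sources used here. Gene structure on mm9 was not used here, so no exon or intron was assigned.

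Levels were methylated over all reads, with equal weight per CpG in a window. Intervals (95%) of a window treat its CpGs as read by the same molecules and cover counting error only. Fisher's exact test (two-sided) was run on all 1045368 CpGs and 99566 clusters with Benjamini-Hochberg adjustment over each. It was tested on simulated reads that held counting error only and no overdispersion, so its error rate in these data is not known. The test compares libraries, not conditions, and reads without molecular identifiers make its p-values too small. Cluster levels use summed reads. A member cluster has at least 50% of its CpGs in a window, so the first Nnat cluster starts outside it. Every window was described, with clusters and CpGs named where called or as the largest; further single CpGs were chosen after their values were seen. Windows, lists and alternatives were chosen with earlier results of these data known. Python 3.11.15, numpy 2.4.6, pandas 2.3.3 and scipy 1.17.1 were used.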

Additional observations from a re-analysis of the deposited data

How the results depend on the processing

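Over the alternatives the mean difference of the windows ranged from -18.2 to -14.9 points for >3-division minus control and from -17.8 to -14.1 points for >3-division minus 0-division. With 1-division minus control it changed sign, from 0.39 to -0.56 points with summed reads, so no direction is read there. With a cluster gap of 200 bp, which left 26 member clusters, 14 were lower in >3-division than in control and 11 lower than in 0-division; 1 was lower in 1-division, 2 were lower and 0 higher in 0-division. At 50 bp (52 clusters) 4 were higher in 1-division. A minimum of 20 points left 16 lower in >3-division against control, 1 lower in 1-division, and 0 lower and 0 higher in 0-division. With no minimum difference 2 were lower and 3 higher in 0-division, 1 higher in 1-division, 1 higher in >3-division against control and 2 higher against 0-division. Division by the overdispersion left 0 lower in 0-division and 0 in 1-division. With thinned reads 2 were lower and 2 higher in 0-division and 1 was higher in 1-division; a minimum of 20 reads gave 1 higher in 1-division. The causes were not tested beyond the fewer clusters, reads or points that each setting leaves. Counts of lower CpGs in >3-division stayed between 83 and 125. Coverage of about 70 reads limits single CpGs, and windows with 5 to 7 CpGs rest on few fragments. No paired analysis was possible because each group has 1 library.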
